A study of Mus musculus with 12 samples.

Results

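Ms4a1 and Blk, a pair of B cell genes, were followed through sorted white blood cells of the mouse mammary gland. They were taken by symbol and are 2 of the 760 genes in the series table; the rule uses no measured value, although earlier results of these data were known when it was written. Ms4a1 encodes CD20, a membrane protein of B cells. Blk encodes B lymphoid kinase, a Src-family kinase. The RefSeq gene table places Ms4a1 on chromosome 19 at 11249679 to 11266149 and Blk on chromosome 14 at 63372837 to 63417187 (GRCm38.p6), and both are protein coding.

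The study fed female FVB/N mice, 3 per diet, from 3 weeks of age for 16 weeks and asked how obesity changes gene expression in cells of the mammary gland. The 4 groups, of 3 samples each, were CD11b+CD34- cells on the high-fat diet (58Y1), CD11b+CD34+ cells on the high-fat diet, CD11b+CD34- cells on the low-fat diet (2920X) and CD11b+CD34+ cells on the low-fat diet. All were live CD45+ cells sorted after digestion of the glands with collagenase and trypsin. The submitters take the CD34- cells as monocytes and macrophages and the CD34+ cells as myeloid progenitors. RNA was amplified from low input and counted with the NanoString nCounter Fibrosis V2 panel, in which barcoded probes count target RNAs without sequencing. No genetic alteration is named in any group.

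B cells carry an antigen receptor whose signal starts when Src-family kinases, Lyn and Blk among them, phosphorylate its signalling chains, after which Syk and Plcg2 pass it on. CD20 is a surface protein that mature B cells carry and plasma cells lose. In mice Blk is also expressed outside the B lineage, in some gamma delta T cells. CD11b, the gate used here, is mainly a myeloid surface protein.

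Recovered totals ran from 78316 to 780070 counts per sample, with the lowest in replicate 3 of the low-fat CD34- cells. The myeloid marker Csf1r, the receptor gene for the macrophage growth factor, was present in every sample. On the log2 scale it ranged from 11.05 to 11.56 in high-fat CD34- cells and 10.95 to 11.60 in high-fat CD34+ cells. The Csf1r values were 9.77 to 9.97 in low-fat CD34- cells and 9.77 to 10.79 in low-fat CD34+ cells. Of 6 macrophage and monocyte genes on the panel, only 5 passed the filter for low values. Ptprc, which encodes CD45, was at 10.75 or above in each sample. Cd34 itself differed in the direction of the sort in 4 of 6 same-numbered pairs, and its CD34- minus CD34+ difference averaged over the diets did not pass an adjusted p of 0.05 (log2 -1.01 ± 0.35 SE, n = 6 per population, limma adjusted p = 0.0598). The 2 pairs that went the other way were high-fat pairs 1 and 3 (0.11 and 0.16). Itgam, the CD11b gene, was not analysed here.

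Both B cell genes were higher in CD34- than in CD34+ cells in each of the 6 same-numbered pairs. Averaged over the diets, Blk was 6.57-fold higher (log2 difference 2.72 ± 0.57 SE, n = 6 per population, limma adjusted p = 0.0046) and Ms4a1 3.15-fold higher (1.65 ± 0.47, adjusted p = 0.0219). The 95% intervals of the fold ran from 2.81 to 15.4 for Blk and from 1.57 to 6.31 for Ms4a1. In the same comparison 8.42% of the 594 genes tested passed as higher in CD34- cells and 10.6% as lower. With same-numbered samples as a block, which the samples' likeness bears out, the adjusted p was 8.36e-05 for Blk and 0.000722 for Ms4a1, against 15.3% of genes called higher and 18.5% lower. An exact two-sided sign-flip test over the 6 pairs gave p = 0.03125 for each gene, the smallest such a design can give, and 14.5% of the genes tested were higher in all 6 pairs. In bulk samples fewer cells of a type and less RNA per cell cannot be told apart.

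**Figure D1:**
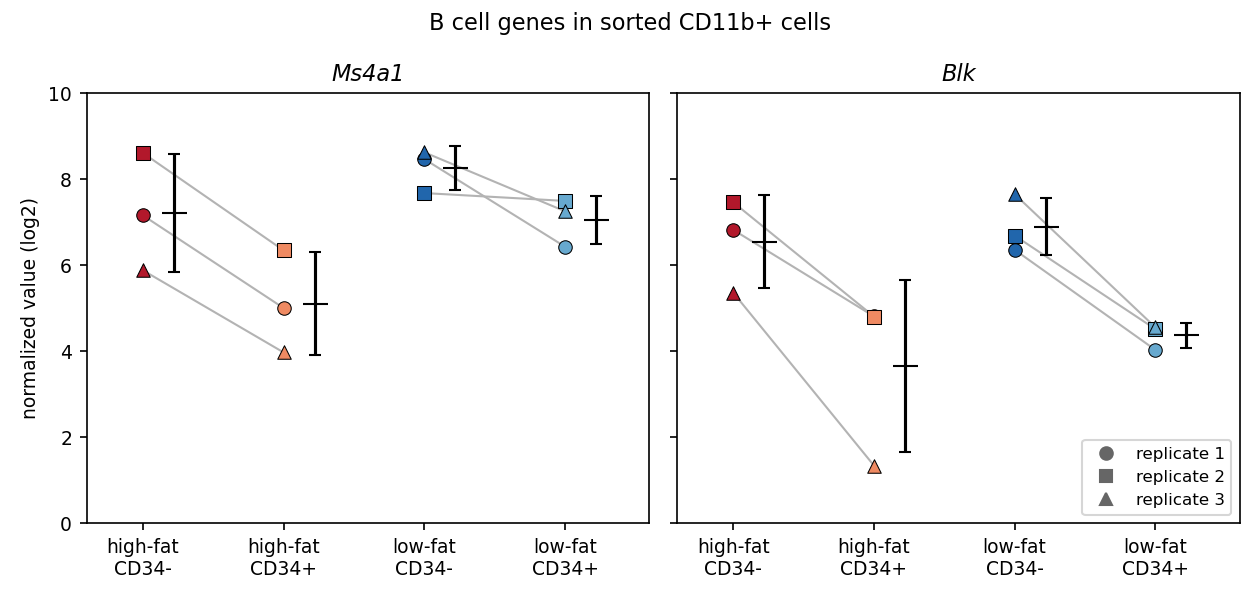
Normalized log2 values of Ms4a1 and Blk in each of the 12 samples by diet and CD34 population; symbols mark replicates, grey lines join same-numbered samples of a diet, and bars beside the points give the mean ± SD (n = 3). Every line falls from left to right, and the lowest Blk value, 1.34, is that of high-fat CD34+ replicate 3.

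Ms4a1 in high-fat CD34- cells stood at 7.16, 8.62 and 5.88 (log2, replicates 1, 2 and 3), against 5.01, 6.35 and 3.97 in high-fat CD34+ cells. Replicate 2 was highest and replicate 3 lowest in both populations, so the groups overlapped although each pair differed the same way. The group means were 7.22 ± 1.37 and 5.11 ± 1.19 (SD, n = 3). The difference of 2.11 ± 0.66 (SE), or 4.32-fold, missed the threshold without a block (limma adjusted p = 0.0587, with 6.90% of genes called higher) and passed with same-numbered samples as a block (adjusted p = 0.00294, 16.7% called higher).

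On the low-fat diet Ms4a1 stood at 8.47, 7.68 and 8.63 in CD34- cells, against 6.43, 7.50 and 7.26 in CD34+ cells. Pair 2 differed by only 0.18, where pairs 1 and 3 differed by 2.04 and 1.37. The mean difference of 1.20 ± 0.66, with a 95% interval from -0.22 to 2.62, did not pass without the block (limma adjusted p = 0.308, 2.69% of genes called higher) or with it (0.0632, 6.23% called higher).

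Blk in high-fat CD34- cells stood at 6.83, 7.47 and 5.36, against 4.81, 4.81 and 1.34 in high-fat CD34+ cells. The group means were 6.55 ± 1.08 and 3.65 ± 2.0 (SD, n = 3). The difference of 2.90 ± 0.81, or 7.45-fold, passed both without the block (limma adjusted p = 0.0413) and with it (0.00155). Much of the size came from CD34+ replicate 3, which held 5 Blk counts (95% Poisson interval 1.62 to 11.7, counting error only). Without that sample the difference was 1.74 (adjusted p = 0.146), and the call also ended without CD34- replicate 1 (0.142) or CD34- replicate 2 (0.186). The same sample was the lowest of all 12 for Ms4a1 and for the T cell receptor gene Cd3e at 5.54.

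On the low-fat diet Blk stood at 6.36, 6.69 and 7.66 in CD34- cells, against 4.03, 4.52 and 4.56 in CD34+ cells. The low-fat CD34+ samples were close together, at 4.37 ± 0.29 (SD), and rested on 14, 11 and 30 counts. The difference of 2.53 ± 0.81, or 5.80-fold, missed the threshold without the block (limma adjusted p = 0.0639) and passed with it (0.00322). It was 2.33, 2.18 and 3.10 in pairs 1, 2 and 3.

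**Figure D2:**
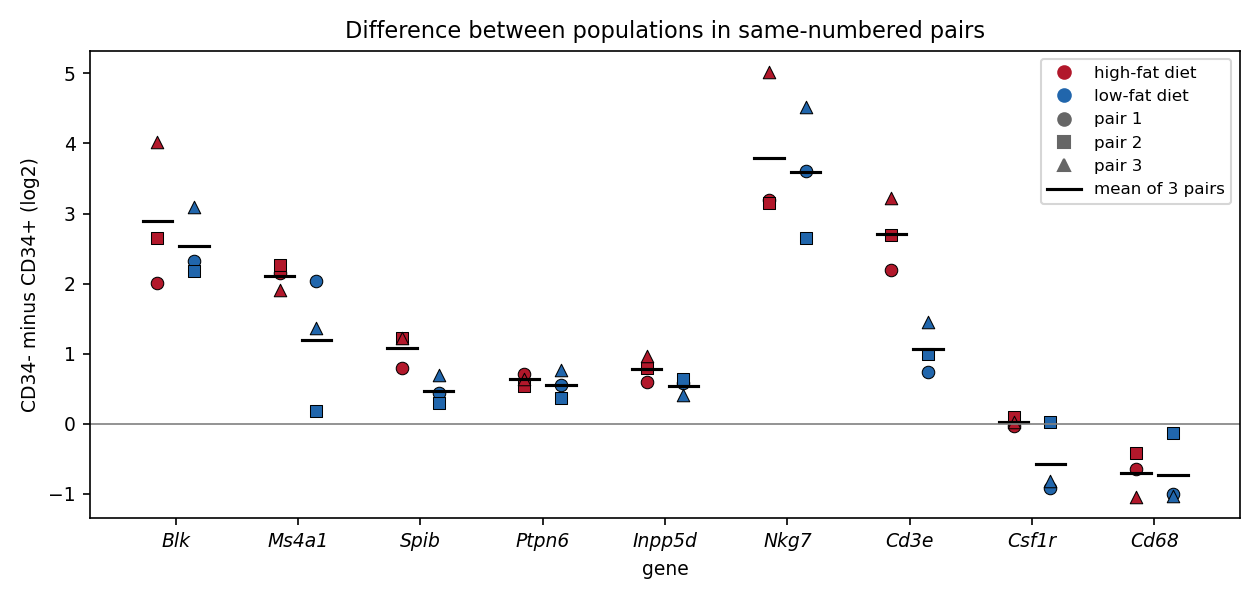
Difference in log2 value between CD34- and CD34+ cells in each same-numbered pair for Blk, Ms4a1, 3 further B cell list genes, 2 genes of T and NK cells (Nkg7, Cd3e) and 2 myeloid genes (Csf1r, Cd68); black lines are means of 3 pairs. The 3 pairs of each diet lie above 0 for the first 7 genes, and the smallest Ms4a1 difference is that of low-fat pair 2. The tested B cell list genes not drawn were mixed. Plcg2, Irf8 and Xbp1 were higher in CD34- cells in 6 of 6 pairs and Vav1 in 5. Tnfrsf17 was higher in 3 pairs, Cd180, Lyn and Syk in 2 each and Irf4 in 1.

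The size of the population difference was not shown to depend on diet for either gene. High-fat minus low-fat, it differed by 0.91 ± 0.93 for Ms4a1 (95% interval -1.09 to 2.92, limma adjusted p = 0.828) and by 0.36 ± 1.14 for Blk (-2.09 to 2.81, adjusted p = 0.965). Limma called 0% of the 594 genes in this comparison, and 52 genes had an unadjusted p under 0.05; with the block 1.18% were called. The intervals are wide enough to hold changes of several fold in either direction.

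Neither gene passed the threshold for diet in either population. In CD34+ cells all 3 high-fat values of Ms4a1 (3.97 to 6.35) lay under all 3 low-fat values (6.43 to 7.50), a pattern shared by 11.4% of the genes tested. The high-fat minus low-fat difference there was -1.96 ± 0.66 (95% interval -3.37 to -0.54, unadjusted p = 0.0105, limma adjusted p = 0.142), in a comparison in which 0.673% of genes passed as lower. Of 6 fits that each left out 1 sample, this Ms4a1 difference passed in 1. That fit left out high-fat CD34+ replicate 2, the highest value of its group (-2.58, limma adjusted p = 0.0393). Over the 6 fits the adjusted p ran up to 0.458. In CD34- cells the Ms4a1 values of the diets overlapped, and the difference was -1.04 ± 0.66 (limma adjusted p = 0.395, with 0% of genes called lower and 2 genes lower at an unadjusted p under 0.05). Blk overlapped between the diets in both populations. Its differences were -0.71 ± 0.81 in CD34+ cells (95% interval -2.45 to 1.02, adjusted p = 0.676) and -0.35 ± 0.81 in CD34- cells (-2.09 to 1.38, adjusted p = 0.875).

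The members did not keep 1 ratio to each other. Probes of different genes need not count with equal efficiency, so the difference of their log2 values within a sample is compared only across samples. Ms4a1 minus Blk was 0.34, 1.15 and 0.52 in high-fat CD34- cells and 0.19, 1.54 and 2.63 in high-fat CD34+ cells. It was 2.11, 0.99 and 0.97 in low-fat CD34- cells and 2.40, 2.98 and 2.70 in low-fat CD34+ cells. Low-fat CD34+ cells thus held the most Ms4a1 for their Blk apart from high-fat CD34+ replicate 3, whose Blk rested on 5 counts. The CD34- minus CD34+ difference of Blk exceeded that of Ms4a1 in 5 of 6 pairs, all but high-fat pair 1, and this was not tested. A relation between the pair differences of the genes was not detectable over 6 pairs (Pearson r = 0.165, exact permutation p = 0.728; Spearman rho = -0.143, exact permutation p = 0.803; both 0.803 after adjustment for these 2 tests). Without the 2 pairs farthest from the median of Ms4a1, r was -0.667, and after re-centring on sample medians, where a different 2 pairs were farthest, it was -0.907; neither value was tested.

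**Figure D3:**
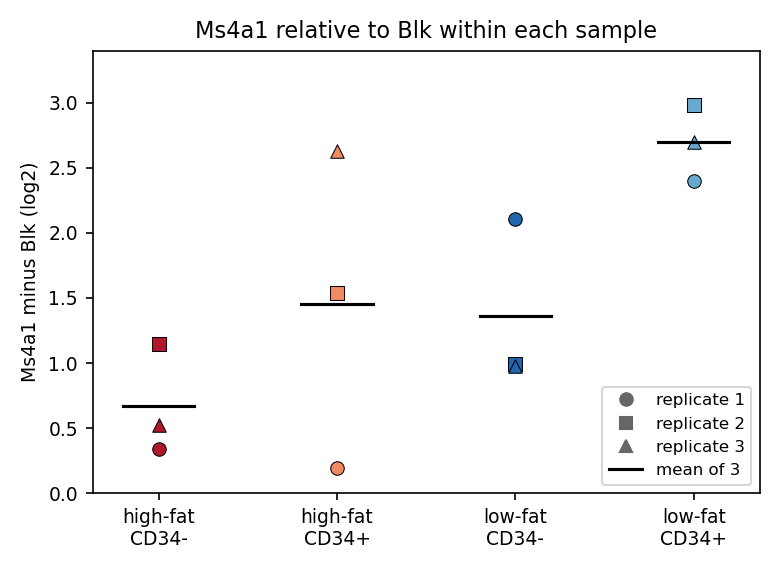
Ms4a1 minus Blk on the log2 scale within each of the 12 samples, by group, with symbols for replicates and lines for the mean of 3. Low-fat CD34+ samples lie between 2.40 and 2.98, above the 3 samples of each CD34- group.

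Other B cell genes were taken from lists of antigen receptor and surface receptor genes, kinases and adaptors, transcription factors and plasma cell genes. Of 51 genes listed, 15 including the members were on the panel and 14 were tested; Fcrlb, with 1 to 10 counts per sample, was left out for low values. Averaged over the diets, 4 of the 14 were higher in CD34- cells, Ms4a1, Blk, Ptpn6 and Inpp5d, and 0 were lower, against 8.42% of all genes tested called higher and 10.6% lower. Their median log2 difference was 0.36, against 0.02 for all genes tested. With the block 7 were higher, with Spib, Irf8 and Xbp1 added, and Irf4 was lower, against 15.3% and 18.5% of all genes. Irf4 was lower in CD34- cells in 5 of 6 pairs (-0.86 to 0.13). On the low-fat diet its mean was 8.31 in CD34- and 9.02 in CD34+ cells, and on the high-fat diet 9.22 and 9.34. Leaving out the members, 2 of 12 genes were higher and 0 lower without the block, and 5 higher and 1 lower with it. The median difference of these 12 was 0.31.

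Among the kinases and adaptors, Ptpn6, which encodes the phosphatase SHP-1, and Inpp5d, which encodes the lipid phosphatase SHIP1, were higher in CD34- cells by 0.60 ± 0.17 (limma adjusted p = 0.0221) and 0.66 ± 0.17 (0.0124) averaged over the diets. Both damp antigen receptor signals and are widely expressed in white blood cells. Over the 6 pairs Ptpn6 was higher by 0.37 to 0.77 and Inpp5d by 0.40 to 0.97. The CD45 gene Ptprc was higher by 0.39 to 0.94 in the same pairs. Lyn, a relative of Blk and a Src-family kinase also used by myeloid cells, held only 12 to 49 counts per sample. Its averaged difference was -0.05 ± 0.34 (limma adjusted p = 0.947), and the contrast between Blk and Lyn was not tested. Syk (-0.12, adjusted p = 0.658), Plcg2 (0.32, 0.213) and the exchange factor gene Vav1 (0.42, 0.323) did not pass either, and neither did the surface receptor gene Cd180 (-0.12, 0.735). Spib, a transcription factor gene of B cells and plasmacytoid dendritic cells, was higher by 0.78 ± 0.33, which passed only with the block (adjusted p = 0.123 without and 0.0108 with it). Tnfrsf17, the BCMA gene of plasma cells, differed by -0.01 ± 0.33 (adjusted p = 0.986).

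**Figure D4:**
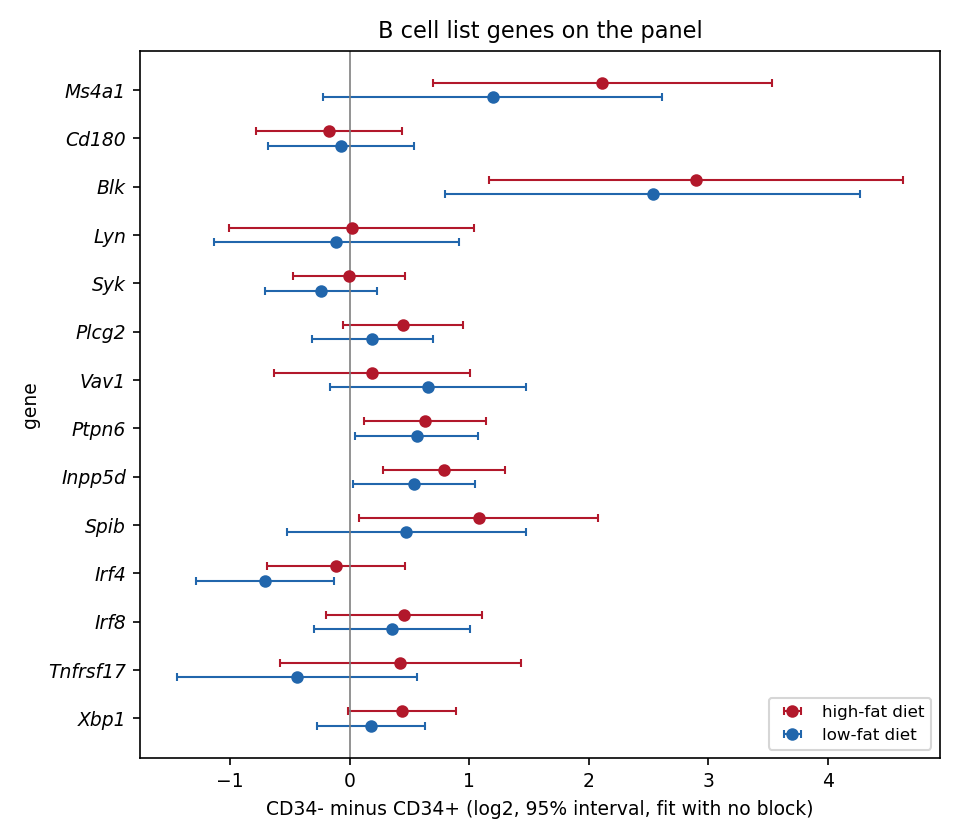
Log2 difference between CD34- and CD34+ cells on the high-fat diet (red) and the low-fat diet (blue) for the 14 tested B cell list genes, with 95% intervals from the fit with no block. Blk and Ms4a1 lie farthest to the right on both diets, and Lyn, Syk and Cd180 lie near 0. Irf4 lies farthest to the left on the low-fat diet.

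Of 6 genes of B cell survival, help and homing on the panel, 4 were tested, and they did not move one way. Ltb, the lymphotoxin beta gene of lymphocytes, was higher in CD34- cells by 1.84 ± 0.43 averaged over the diets (limma adjusted p = 0.00874). Ccr7, a homing receptor gene of lymphocytes and dendritic cells, was lower by -1.18 ± 0.15 (adjusted p = 0.000256). Il21r, the interleukin 21 receptor gene, was higher on the high-fat diet (1.54 ± 0.37, adjusted p = 0.0263) and not called on the low-fat diet (-0.65 ± 0.37, 0.318). The diet dependence of the Il21r difference was not called without the block. It was called with the block, where 1.18% of all genes were called. With the block and re-centring on sample medians 0 genes were called. In CD34+ cells Ccr7 and Il21r were called lower on the high-fat diet, where 0.673% of genes were. Cd86, a costimulatory ligand gene of antigen-presenting cells, differed by -0.57 ± 0.19 averaged over the diets, which passed only with the block (adjusted p = 0.0502 without and 0.00593 with it).

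Markers of other lymphocytes moved with the B cell genes. Of 17 T and NK cell genes on the panel 16 were tested, and 14 were higher in CD34- cells averaged over the diets, with a median log2 difference of 2.34, where 8.42% of all genes tested were called higher and 10.6% lower. Linear values summed over all 17 ran from 4669 to 8863 in high-fat CD34- cells and 681 to 1836 in high-fat CD34+ cells. On the low-fat diet these sums ran from 4378 to 19244 in CD34- cells and 1800 to 3114 in CD34+ cells. Of 5 tested macrophage and monocyte genes 3, Cd68, Cd14 and Cd163, were lower in CD34- cells. Of 6 tested fibroblast genes 5 were lower. Summed over the 7 fibroblast genes on the panel, values ran from 1956 to 2781 in high-fat CD34- cells and 6235 to 10733 in high-fat CD34+ cells. The low-fat sums ran from 272 to 728 in CD34- cells and 1182 to 4998 in CD34+ cells. Of 4 tested neutrophil genes 3 were higher. The part of other cell types in the Ms4a1 and Blk differences was not tested.

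The genes most like each member over the 12 samples came from several lineages. By Pearson r of log2 values, the genes nearest Ms4a1 included Spib (r = 0.947), Scd1 (0.916), Sh2d1a (0.911) and H2-DMb2 (0.911). Scd1 encodes a fatty acid desaturase, Sh2d1a a signalling adaptor of T and NK cells, and H2-DMb2 a chain of the peptide exchange factor of MHC class II. Those nearest Blk included Nkg7, a cytotoxic granule gene (0.946), Ptpn6 (0.935), Sh2d1a (0.917) and Ttn, the titin gene of muscle (0.916), of which the samples held 7 to 35 counts. Ms4a1 and Blk correlated with each other at 0.829, which put Blk 20th for Ms4a1 and Ms4a1 38th for Blk. After removal of the group means, the correlation was 0.889 for Ms4a1 with Spib, 0.869 for Blk with Nkg7 and 0.787 for Ms4a1 with Blk. These values describe 12 samples that fall in the same 4 groups, deviate together by replicate number within a diet and carry 1 scaling constant each.

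In the authors' deposited table of genes that differed between the populations on the high-fat diet, Ms4a1 and Blk were both listed, in cluster 2 with 103 of the table's 135 genes. Spib, Inpp5d and Ptpn6 stood in the same cluster. Neither member was listed in the authors' deposited tables for the other 3 comparisons.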

How the data were processed

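The members and gene lists were chosen with earlier results of these data known. The values are log2 values as deposited by the authors, normalized by 1 constant per sample, whose basis no label or header used here states. The authors' 4 further deposited tables hold the same log2 values centred per gene, with a cluster number of the authors' own (unit other). Counts were recovered by taking the lowest value of a sample as 1 count: all values under 300 were whole within 0.02, and 98.0% to 99.6% of all values within 0.1. A value of 1 count can stand for 0.

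Of 760 genes, 594 reached 20 on the linear scale in 3 or more samples and were fitted with 4 group means in limma 3.58.1 (R 4.3.3, mean-variance trend, two-sided, Benjamini-Hochberg over 594 genes, threshold 0.05), tested on simulated data. Same-numbered samples of a diet deviated together (r = 0.306 to 0.434, against -0.375 to 0.143 for other numbers), so the numbers pair the samples; the labels do not say that they share a mouse. The block was a random effect (consensus correlation 0.448). Replicate pairs differed beyond sampling noise (chi-square over its degrees of freedom at least 13.3), so each library counted as 1 sample. P-values of the fit without the block rest on the spread between samples of a group. The fit with the block also uses the likeness of same-numbered samples, and the sign-flip test rests on the pair differences. Named genes were the members, sort markers, listed B cell genes, up to 4 passing survival genes and the 5 genes nearest each member, of which 1 gene is not reported here; genes of other marker lists and Nkg7, Cd3e, Cd68, Cd14, Cd163 and Csf1r were named after their values were seen. Alternatives are given in the closing section. Mast cell and plasmacytoid dendritic cell lists were also run, and averaged over the diets 0 of 2 and 0 of 1 tested genes passed without the block.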

Additional observations from a re-analysis of the deposited data

How the results depend on the processing

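Ms4a1 and Blk stayed higher in CD34- cells on each diet and averaged over the diets under every alternative run: re-centring on sample medians, no filter, voom on recovered counts, the replicate block, the block with re-centring, only the groups compared, each sample left out, and 2 libraries left out together (replicate 2 of the high-fat CD34+ cells, rich in collagen RNA, and replicate 3 of the low-fat CD34- cells, with the fewest counts; chosen after seeing the data). Calls moved more than sizes. On the high-fat diet Ms4a1 passed with the block (2.11), with the block and re-centring (1.83) and without the 2 libraries (2.73), and Blk did not pass in a fit of the groups compared alone (2.90). On the low-fat diet Blk passed with the block (2.53), with re-centring (2.58), with the block and re-centring (2.58) and in the fit of 2 groups (2.53). Leaving out 1 sample gave 1.41 to 2.78 for Ms4a1 and 1.74 to 3.49 for Blk on the high-fat diet, 0.88 to 1.49 and 2.16 to 2.81 on the low-fat diet, and 1.31 to 1.99 and 2.14 to 3.01 averaged over the diets. The averaged Ms4a1 call ended without high-fat CD34- replicate 2 (adjusted p = 0.0569), high-fat CD34+ replicate 3 (0.052) or low-fat CD34+ replicate 1 (0.0675), and that of Blk held in all 12. Over 5 pairs the sign-flip means were 1.53 to 1.95 and 2.46 to 2.86, where p cannot fall under 0.0625. For diet, high-fat minus low-fat, leaving out 1 sample gave -1.74 to -0.37 for Ms4a1 and -0.81 to 0.24 for Blk in CD34- cells, and -2.58 to -1.39 and -1.29 to 0.44 in CD34+ cells. The diet dependence ran from 0.22 to 1.58 and from -0.79 to 0.96. Without the 2 libraries Blk turned to 0.025 in CD34- cells, and Ms4a1 passed in CD34+ cells (-2.58). The correlation of pair differences turned to -0.0513 with re-centring. Of 14 B cell list genes, 1 passed on the high-fat diet, against 5 with the block, 2 with the block and re-centring, 2 with voom, 0 with the groups compared alone and 3 without the 2 libraries (0 to 3 leaving out 1 sample). On the low-fat diet 0 passed, against 4 with the block, 1 with re-centring, 4 with both and 1 with the groups compared alone (0 leaving out 1 sample); averaged, 4 passed, against 8 with the block (2 to 5). By diet 0 passed in each population, against 2 in CD34- and 1 in CD34+ cells without the 2 libraries (0 to 2 and 0 to 1 leaving out 1 sample). Of all genes, 53, 58 and 113 passed on the high-fat diet, the low-fat diet and averaged, against 142, 131 and 201 with the block, and 122, 127 and 191 with the block and re-centring; the first was 90 without the 2 libraries and 0 to 64 leaving out 1 sample, and the second 26 to 56. By diet 30 passed in CD34- cells, against 17 with re-centring, 17 with both and 17 with voom (4 to 31 leaving out 1 sample), and 14 in CD34+ cells, against 0 with the groups compared alone and 53 without the 2 libraries (0 to 29). Diet dependence had 0, against 7 with the block and 1 without the 2 libraries. The median of all genes was 0.21 on the high-fat diet and -0.14 on the low-fat diet, and re-centring changed the high-fat calls from 41 higher and 12 lower to 43 and 35, the low-fat calls from 16 and 42 to 24 and 34, and the CD34+ diet calls from 10 and 4 to 12 and 1. The causes were not tested. Blk counts of 5 to 42 in CD34+ samples limit the precision of its fold there.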
